A study of Mus musculus with 5 samples.

Results

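Complement is a set of plasma and cell-surface proteins that tag and clear microbes and damaged cells. Described here are 9 mouse genes of this system: the C1q chain genes C1qa, C1qb and C1qc, the central component C3, the alternative pathway genes Cfp and Cfb, the receptors C3ar1 and C5ar1, and the surface inhibitor Cd55. They were chosen by symbol, and all 9 had a row among the 14462 rows of the deposited table. The RNA came from CD45-positive cells sorted from the lungs of mice labelled as bearing MC38/MC38 tumors; MC38 is a mouse colon adenocarcinoma cell line, and CD45 is a surface protein of leukocytes. The irradiated group (IR, 2 libraries) came from mice whose tumours had been irradiated, and the control group (ctrl, 3 libraries) carried the same tumour label. The lungs were collected 3 days after irradiation; strain, age and radiation dose are not given in the labels, nor is what the controls received. The labels do not say that libraries came from separate animals, so p-values reflect only how much these libraries vary, part of which may be technical.

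Several routes start complement: the classical route through C1q bound to antibody or dying cells, the lectin route, and the alternative route, which factor B and properdin keep going. All of them cleave C3, then C5, and release small fragments, the anaphylatoxins, that draw and activate leukocytes through G protein-coupled receptors. Most circulating complement is made by the liver, whereas macrophages are a main source of C1q, and neutrophils, which store properdin, carry the C5a receptor, as monocytes do.

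The table held gene-level read counts after a scaling step of the authors. Library totals ran from 7544034 to 8414753 in IR and from 7232126 to 7425923 in ctrl. Low values in the table rose in steps of 0.726 to 0.934 per library, roughly the worth of 1 read, so 3 reads correspond to a value of 2.18 to 2.80, the limit below which a value is taken here as not detectable at this depth. This limit covers counting error only. IR replicate 2 stood apart from the other 4 libraries on the first principal component of all genes tested (131.5, against -6.00 in IR replicate 1 and -51.9 to -30.5 in ctrl), which held 41.6% of the variance. Ptprc, the gene for CD45, had values of 17369 and 27246 in IR and 15543 to 15842 in ctrl. Markers of lung epithelium, which a CD45 sort should remove, were detected in every library; for all 18 markers the summed value was 119502 and 57838 in IR replicates 1 and 2 and 23568 to 27522 in ctrl. Most of this sum was Scgb1a1, a secretoglobin of airway club cells; the other 17 markers summed to 15530 and 6849 in IR replicates 1 and 2 and 4240 to 7473 in ctrl, which overlap.

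The promoters of C5ar1, Cd55 and C3 are shown because C5ar1 alone passed the test, Cd55 had separate groups in the other direction, and C3 was the most abundant member. Each run covers 250 bases before and 50 after the annotated start on the minus strand (RefSeq, GRCm38.p6), read 5′ to 3′. The C5ar1 run lies at chr7:16259289-16259588, the Cd55 run at chr1:130462695-130462994 and the C3 run at chr17:57228087-57228386. Capitals mark matches, on either strand, to GAGGAA, a core form of the site of the myeloid factor PU.1, to TTGCNNAA, a form of the C/EBP site, and to GGGANNNNCC, a loose form of the NF-kB site.
C5ar1: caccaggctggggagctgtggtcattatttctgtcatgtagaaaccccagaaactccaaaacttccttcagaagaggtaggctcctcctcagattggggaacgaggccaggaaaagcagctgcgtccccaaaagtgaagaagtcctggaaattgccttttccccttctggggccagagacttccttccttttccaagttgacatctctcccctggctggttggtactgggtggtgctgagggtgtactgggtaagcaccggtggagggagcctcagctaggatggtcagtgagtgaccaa
Cd55: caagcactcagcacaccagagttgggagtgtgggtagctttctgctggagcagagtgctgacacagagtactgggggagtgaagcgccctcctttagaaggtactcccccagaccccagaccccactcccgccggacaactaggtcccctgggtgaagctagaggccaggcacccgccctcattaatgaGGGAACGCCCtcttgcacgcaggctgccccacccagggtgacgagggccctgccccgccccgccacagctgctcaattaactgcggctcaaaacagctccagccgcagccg
C3: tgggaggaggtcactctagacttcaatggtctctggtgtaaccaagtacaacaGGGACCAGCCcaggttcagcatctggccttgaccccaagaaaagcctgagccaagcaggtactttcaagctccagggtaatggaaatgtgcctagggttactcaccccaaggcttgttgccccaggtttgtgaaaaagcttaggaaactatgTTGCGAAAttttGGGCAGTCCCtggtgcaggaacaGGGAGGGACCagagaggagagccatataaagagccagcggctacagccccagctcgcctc
The C5ar1 run held none of these 3 patterns, which says only that these letters are not in this window. The Cd55 run held 1 match to GGGANNNNCC. The C3 run held 1 match to TTGCNNAA and 3 to GGGANNNNCC, none of them overlapping. Among 32817 promoter runs of the same length, GAGGAA was found in 28.3%, TTGCNNAA in 10.8% and GGGANNNNCC in 20.7%, so a match is common and describes only the letters. Promoter runs were matched for 7 of the 9 members.

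**Figure D1:**
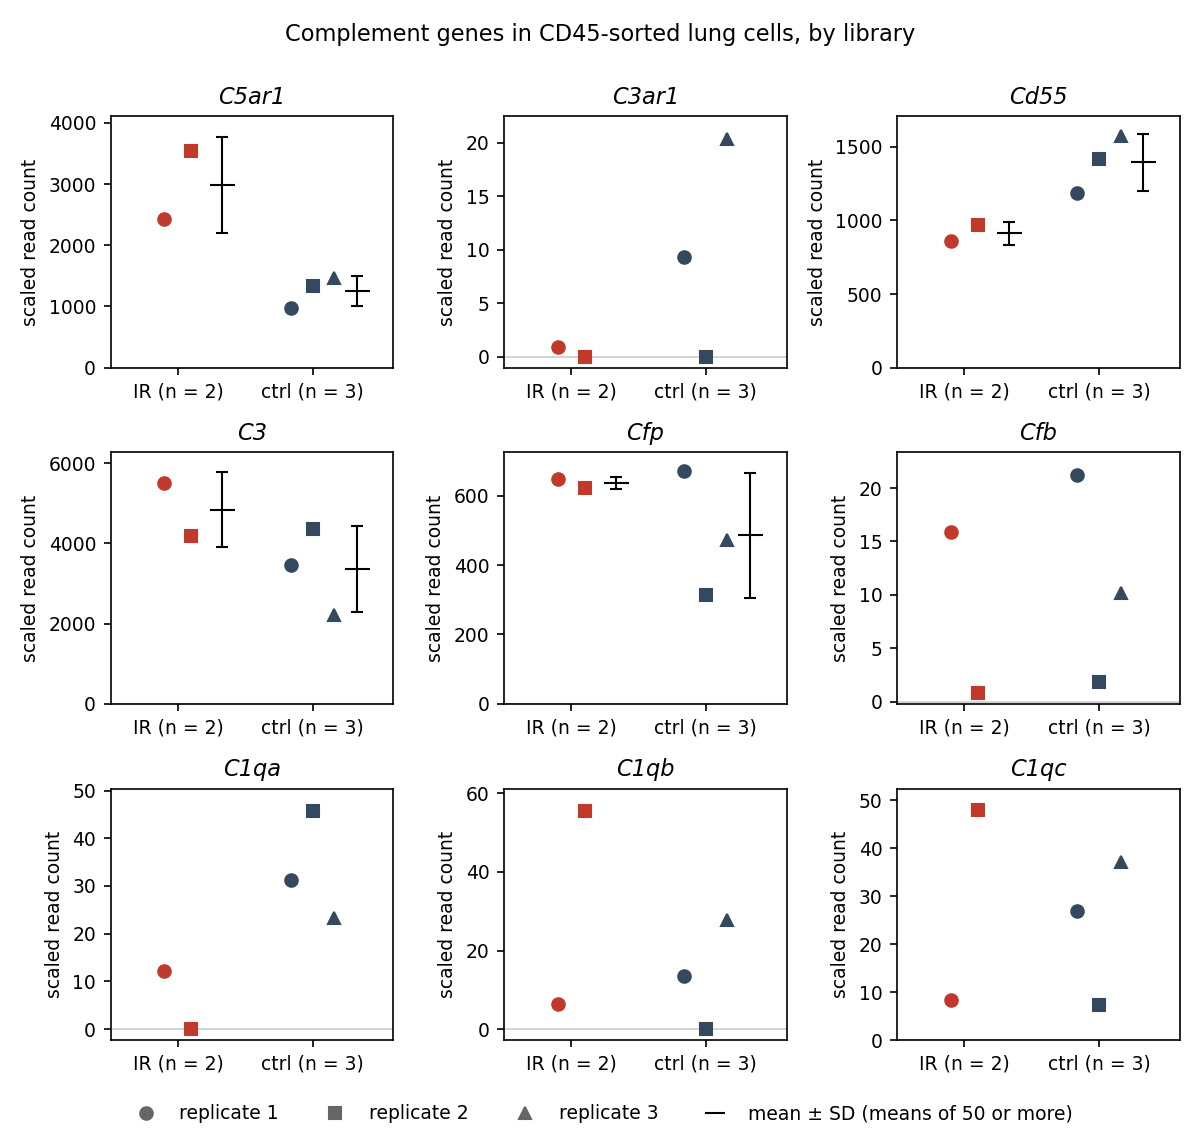
Scaled read count of each complement gene (y axis, 1 panel a gene, each with its own scale) in the 2 IR and 3 ctrl libraries; symbols are libraries, and bars give mean ± SD for genes with a mean of 50 or more. C5ar1 was at 2437 and 3543 in IR, above all ctrl libraries (975 to 1458), and Cd55 at 857 and 968 in IR, below all of them (1189 to 1575).

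IR and ctrl libraries were compared to see which complement transcripts of lung leukocytes differ after tumour irradiation. Of the 8 members that could be tested, C5ar1 rose, none fell, and 7 did not pass. The mean of C5ar1 was 2.39 times as high in IR, and Cd55 was lower in both IR libraries without passing. C3 and Cfp had positive fold changes that did not pass, and their groups overlapped. The C1q chains, Cfb and C3ar1 were low, with about 66 reads or fewer in every library. Among all 12777 genes in the limma fit, 192 passed an adjusted p of 0.05 (1.50%), 146 of them higher in IR (1.14%) and 46 lower (0.360%). Of these, 76.0% were higher; without IR replicate 1, 447 were higher and 559 lower (44.4% higher), and without any one of the other libraries 61.5% to 95.7% were higher. With values rescaled to equal library totals 259 genes passed and 55.2% were higher, and the median over all genes was a log2 fold change of -0.17 in place of -0.05. Groups did not overlap for 3 of the 8 members tested (C5ar1, C1qa and Cd55), against 31.5% of all genes tested, a share near this background. The median log2 fold change of the 8 was 0.25. C3ar1 was left out of the test because it did not reach a value of 10 in 2 libraries.

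C5ar1 encodes the main receptor for C5a, the strongest attractant among the anaphylatoxins (chromosome 7, 16246743 to 16259540, GRCm38). Its value was 2436.9 and 3542.9 in IR replicates 1 and 2, against 975.3, 1326.4 and 1457.8 in ctrl replicates 1 to 3. Both IR libraries lay above all ctrl libraries, as in 15.2% of all genes tested, and IR replicate 2 was the highest. The means were 2990 ± 782 (SD, n = 2) in IR and 1253 ± 249 (SD, n = 3) in ctrl. The log2 fold change was 1.25 ± 0.22 (SE), with a 95% confidence interval of 0.79 to 1.71 and a limma adjusted p of 0.00430, and 92.1% of genes tested had a fold change as low or lower. A two-sided exact permutation test over the libraries gave p = 0.1, the smallest it can give, as it also did for C1qa and Cd55. C5ar1 missed the limma threshold when ctrl replicate 1 (adjusted p = 0.0972) or ctrl replicate 2 (0.0627) was left out, and with no filter on low values (0.0659). Without IR replicate 2, which stood apart, its log2 fold change was 0.98 and it passed (adjusted p = 0.0491).

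**Figure D2:**
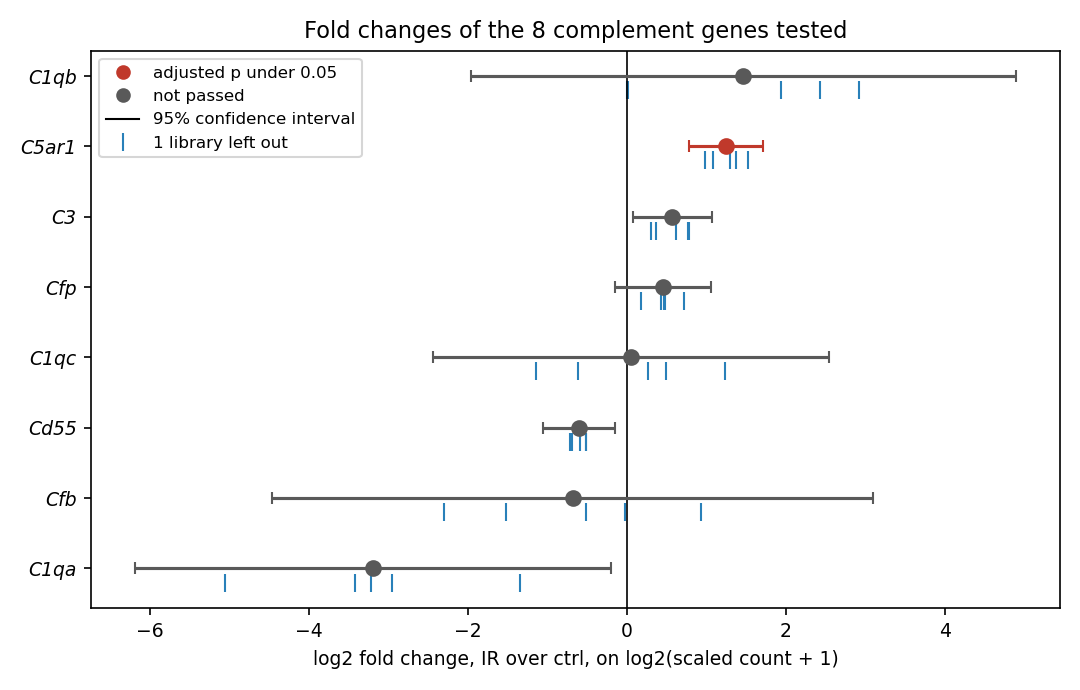
Log2 fold change of IR over ctrl on log2(scaled count + 1) (x axis) for the 8 members tested (y axis), with 95% confidence intervals from limma; blue ticks are the values with 1 library left out. C5ar1 (1.25) passed at an adjusted p under 0.05, while the intervals of C1qb, C1qc and Cfb span several log2 units on either side of 0.

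Markers of neutrophils, which carry the C5a receptor, moved with C5ar1. All 15 markers on the neutrophil list had positive fold changes, 7 rose and 8 did not pass, with a median log2 fold change of 1.49. Their summed value was 84951 and 166859 in IR replicates 1 and 2, against 34849 to 61457 in ctrl. S100a9, a calcium-binding protein abundant in neutrophils, Csf3r, the G-CSF receptor, and Mmp9, a gelatinase stored in granules, had the highest means on the list, with log2 fold changes of 1.44, 1.28 and 1.03, and of these Csf3r alone passed (limma adjusted p = 0.104, 0.0152 and 0.0950). Relative to each library's own neutrophil sum, C5ar1 was 28.7 and 21.2 per 1000 in IR replicates 1 and 2, against 28, 29.4 and 23.7 per 1000 in ctrl replicates 1 to 3, so on this scale the groups overlapped. In bulk RNA, fewer cells of a type and less RNA per cell cannot be told apart, and likewise for more. Classical monocyte markers, a further class with the receptor, summed to 47742 and 52071 in IR and 32284 to 35257 in ctrl, with 1 of 10 higher (Cd14) and a median log2 fold change of 0.32; their part in the C5ar1 result was not tested.

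The 5 genes with the nearest profile to C5ar1 across the 5 libraries were Sfxn5, Fam8a1, Slfn1, Arap3 and Csf3r, among 7281 genes with a mean value of at least 100. Likeness was the Euclidean distance between log2 profiles centred on their means, which ran from 0.166 for Sfxn5 to 0.204 for Csf3r. All 5 had both IR libraries above all ctrl libraries. Slfn1, Arap3 and Csf3r passed the limma test (adjusted p = 0.00695, 0.0410 and 0.0152), and Sfxn5 and Fam8a1 did not (0.0643 and 0.228). The likeness describes 5 points only. Genes near the C5ar1 profile share its separation of the groups because of how they were chosen. Their separation and calls therefore add no support to the C5ar1 result.

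**Figure D3:**
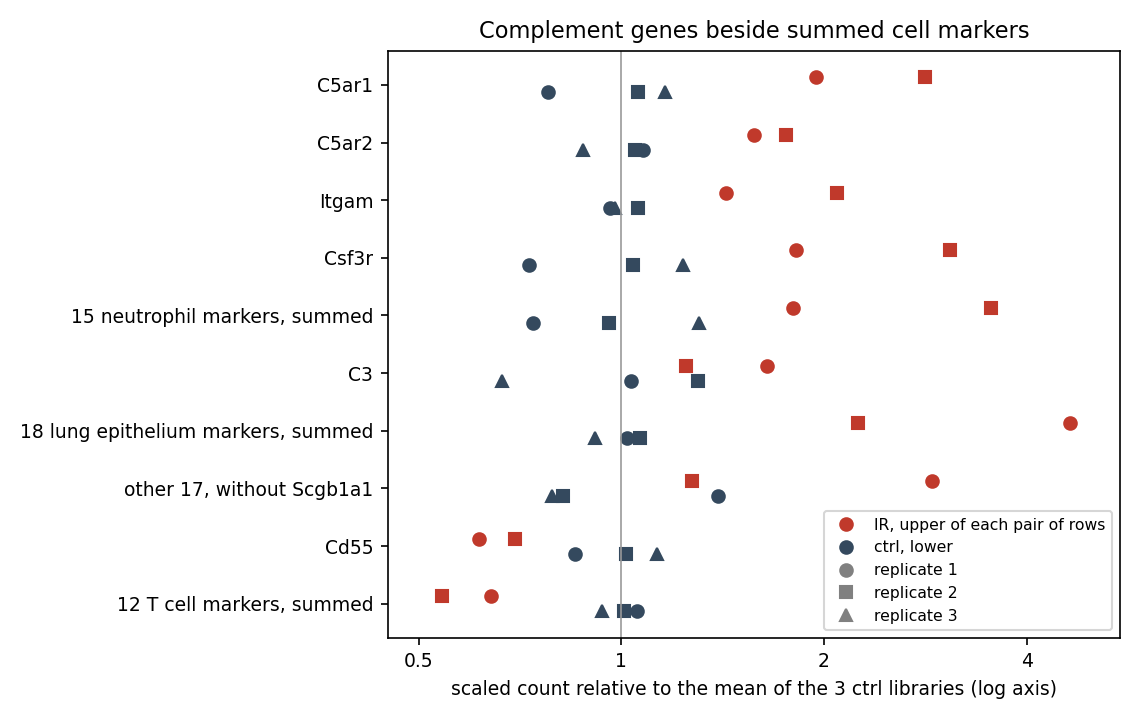
Scaled count in each library relative to the mean of the 3 ctrl libraries (x axis, log scale) for complement genes, for Csf3r and for summed markers of neutrophils, lung epithelium (with and without Scgb1a1) and T cells (y axis); red points are IR libraries and dark points ctrl libraries. C5ar1 was at 1.95 and 2.83 times the ctrl mean in IR replicates 1 and 2, and the neutrophil markers at 1.80 and 3.54 times.

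C3ar1, the receptor for C3a, was low or listed at 0 (chromosome 6, 122847138 to 122856161). It had a value of 0.9 in IR replicate 1, was listed at 0 in IR replicate 2, and had 9.3 in ctrl replicate 1, 0 in ctrl replicate 2 and 20.4 in ctrl replicate 3. The value in IR replicate 1 corresponds to about 1 read, and 3 of the 5 libraries were at or under the 3-read limit, so no fold is given. No ubiquitous gene among 10 looked up, such as Actb, was listed at 0. Their lowest value, 135.3, was above every value of C3ar1, so this cannot tell how often low genes are listed at 0. The within-library log2 ratio of C5ar1 to C3ar1 averaged 11.1 ± 1.04 (SD, n = 2) in IR and 7.68 ± 2.35 (SD, n = 3) in ctrl. The difference of 3.38 had an exact two-sided permutation p of 0.3, where the smallest possible is 0.1. It rests on the few reads of C3ar1 and on the pseudocount: with a pseudocount of 10 it was 2.03. C5ar2, a further C5a receptor, singled out after its values were seen, had 363.6 and 406.0 in IR against 248.4, 242.1 and 202.2 in ctrl. Its groups did not overlap, but its log2 fold change of 0.74 ± 0.33 (SE) did not pass, at a limma adjusted p of 0.290.

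Cd55 encodes decay-accelerating factor, a lipid-anchored surface protein that speeds the breakdown of C3 and C5 convertases on host cells (chromosome 1, 130439027 to 130462744). Its value was 857.1 and 967.5 in IR replicates 1 and 2, against 1189.1, 1417.7 and 1574.8 in ctrl replicates 1 to 3. Both IR libraries lay below all ctrl libraries, as in 16.3% of all genes tested. The means were 912 ± 78.1 (SD, n = 2) in IR and 1394 ± 194 (SD, n = 3) in ctrl, a log2 fold change of -0.60 ± 0.22 (SE, 95% confidence interval -1.05 to -0.15), which did not pass (limma adjusted p = 0.179). It remained negative with each library left out (-0.71 to -0.51), and with values rescaled to library totals it was -0.73 (adjusted p = 0.0744). Without IR replicate 2 it was -0.69 (adjusted p = 0.250). GENCODE places the antisense gene Gm16083 over Cd55 on the opposite strand, and its close relative Cd55b was not analysed here, so the reads of Cd55 may be shared.

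T cell markers were also lower in IR. All 12 had negative fold changes, 2 fell (Lef1, a transcription factor, and Cd3g, a CD3 subunit) and 10 did not pass, with a median log2 fold change of -0.75. Their summed value was 5491 and 4632 in IR replicates 1 and 2 and 8022 to 9024 in ctrl. Per 1000 of this sum, Cd55 was at 156 and 209 in IR and 132 to 196 in ctrl, which overlap. Per 1000 of the summed pan-leukocyte markers, such as Ptprc and Lcp1, Cd55 was at 12.8 and 10.7 in IR and 22.8 to 28 in ctrl, which do not. The pan-leukocyte sum was 66738.5 and 90186.3 in IR replicates 1 and 2 and 50589.9 to 57732.1 in ctrl. With Cd55 lower and this sum higher in both IR libraries, their ratio had to separate, so it adds no support to a fall of Cd55. The B cell markers, with 1 of 10 lower (Ebf1), summed to 8194 and 6788 in IR replicates 1 and 2 and 7743 to 14078 in ctrl. Alveolar macrophage markers, with 0 of 18 passing, summed to 15743 and 15536 in IR replicates 1 and 2 and 16272 to 17565 in ctrl. The part of these cell types in the Cd55 values was not tested.

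C3, the component on which all routes converge, was the most abundant member; 98.3% of rows had a lower mean value (chromosome 17, 57203970 to 57228136). Its value was 5515.9 and 4179.2 in IR replicates 1 and 2, against 3470.1, 4364.7 and 2228.8 in ctrl replicates 1 to 3. The groups overlapped, since ctrl replicate 2 lay above IR replicate 2. The means were 4848 ± 945 (SD, n = 2) in IR and 3355 ± 1073 (SD, n = 3) in ctrl, a log2 fold change of 0.57 ± 0.24 (SE) with a 95% confidence interval of 0.07 to 1.07 and a limma adjusted p of 0.267. With 1 library left out it ran from 0.30 (without ctrl replicate 3) to 0.79 (without ctrl replicate 2), and it was 0.37 without IR replicate 1 and 0.77 without IR replicate 2 (adjusted p = 0.310). Lung epithelium, which also makes C3, had 2 of its 18 markers higher and 0 lower at the limma threshold, both of them secretoglobins (Scgb1a1 and Scgb3a2). The median log2 fold change was 0.83, with 14 positive and 4 negative. Of the 18, 5 had both IR libraries above all ctrl libraries, the 2 secretoglobins among them, against 15.2% of all genes tested. Epcam, an adhesion protein of epithelia in general and one of the 4 negative markers, alone had both below, against 16.3%. Epcam was at 45.8 and 74.8 in IR and 133.4 to 185.1 in ctrl (log2 fold change -1.45). Scgb1a1 was at 103972 and 50989 in IR and 18790 to 23115 in ctrl. Per 1000 of the epithelial sum, C3 was at 46.2 and 72.3 in IR and 94.6 to 159 in ctrl, so this ratio was lower in both IR libraries than in all ctrl libraries. That separation rests on Scgb1a1: per 1000 of the other 17 markers, an alternative chosen after seeing the data, C3 was at 355 and 610 in IR and 464 to 990 in ctrl, which overlap. The part of epithelial RNA in the C3 values was not tested. Fibroblast markers, of another cell type that makes C3, were low. Of 12 listed, 6 had a row, and these summed to 13 and 61.3 in IR and 0.9 to 29.0 in ctrl.

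Cfp encodes properdin, which stabilises the convertase of the alternative route (chromosome X, 20925454 to 20931555). Its value was 649.6 and 623.7 in IR replicates 1 and 2, against 671.9, 313.3 and 473.0 in ctrl replicates 1 to 3. The IR libraries were close to each other and inside the ctrl range. Its log2 fold change, 0.46 ± 0.29 (SE), had a 95% confidence interval of -0.15 to 1.06 and a limma adjusted p of 0.491. It was 0.17 without ctrl replicate 2 and 0.72 without ctrl replicate 1. Per 1000 of the neutrophil sum, Cfp was at 7.65 and 3.74 in IR and 6.93 to 19.3 in ctrl, and per 1000 of the classical monocyte sum at 13.6 and 12 in IR and 8.89 to 19.4 in ctrl. Both pairs overlap, so Cfp was not set apart from either marker list. Cfb, the protease of the same convertase (chromosome 17, 34856374 to 34862518), had 15.9 and 0.8 in IR against 21.2, 1.8 and 10.2 in ctrl. These are about 17 and 1 reads in IR and 25, 2 and 14 in ctrl. The 95% confidence interval of its log2 fold change was -4.47 to 3.10 (limma adjusted p = 0.900), so changes within that range were not detectable at this depth. GENCODE also lists the gene Gm20547 across Cfb on the same strand, so its few reads are uncertain.

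C1qa, C1qb and C1qc encode the A, B and C chains of C1q, which assemble together in equal numbers; the genes lie within 18.7 kb on chromosome 4 (136880129 to 136898803). C1qa had 12.1 in IR replicate 1 and was listed at 0 in IR replicate 2, against 31.3, 45.7 and 23.3 in ctrl replicates 1 to 3. Both IR libraries were below all ctrl libraries for this chain. C1qb had 6.5 and 55.5 in IR, against 13.5, 0 and 27.7 in ctrl. C1qc had 8.4 and 47.9 in IR, against 27, 7.3 and 37.2 in ctrl. The other two chains were highest in the IR library in which C1qa was listed at 0, and C1qb was listed at 0 in ctrl replicate 2, where C1qa was highest. IR replicate 2 thus held about 66 reads of C1qb and 57 of C1qc beside 0 of C1qa, and ctrl replicate 2 about 50 of C1qa and 8 of C1qc beside 0 of C1qb. These libraries also had the most genes listed at 0 over the whole table, 1991 in IR replicate 2 and 1616 in ctrl replicate 2. The count was 1165 in IR replicate 1 and 1274 and 677 in ctrl replicates 1 and 3. The zeros of C3ar1 were in the same libraries. Whether the zeros belong to the chains or to these libraries was not tested.

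None of the chains passed. The log2 fold change of C1qa, -3.20 ± 1.45 (SE), had a limma adjusted p of 0.303 and depends on the pseudocount because of the library at 0; it was -1.51 with a pseudocount of 10 (adjusted p = 0.321). Without IR replicate 1 it was -5.05 and passed (adjusted p = 0.0432), and without IR replicate 2 it was -1.34 (adjusted p = 0.766). C1qb and C1qc had 1.46 ± 1.66 and 0.05 ± 1.21 (SE; limma adjusted p = 0.726 and 0.989). The value of C1qb was 0.0066 without IR replicate 2, 0.013 without ctrl replicate 2 and 2.92 without IR replicate 1. The 3 chains together summed to 27 and 103.4 in IR and 53.0 to 88.2 in ctrl, so the sum was both lowest and highest in IR. The within-library log2 ratio of Cfp to the mean of the chains was 5.77 ± 0.41 (SD, n = 2) in IR and 4.75 ± 0.72 (SD, n = 3) in ctrl, a difference of 1.02 with an exact two-sided permutation p of 0.2. This difference was 0.64 without ctrl replicate 3 and 0.71 with a pseudocount of 10.

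**Figure D4:**
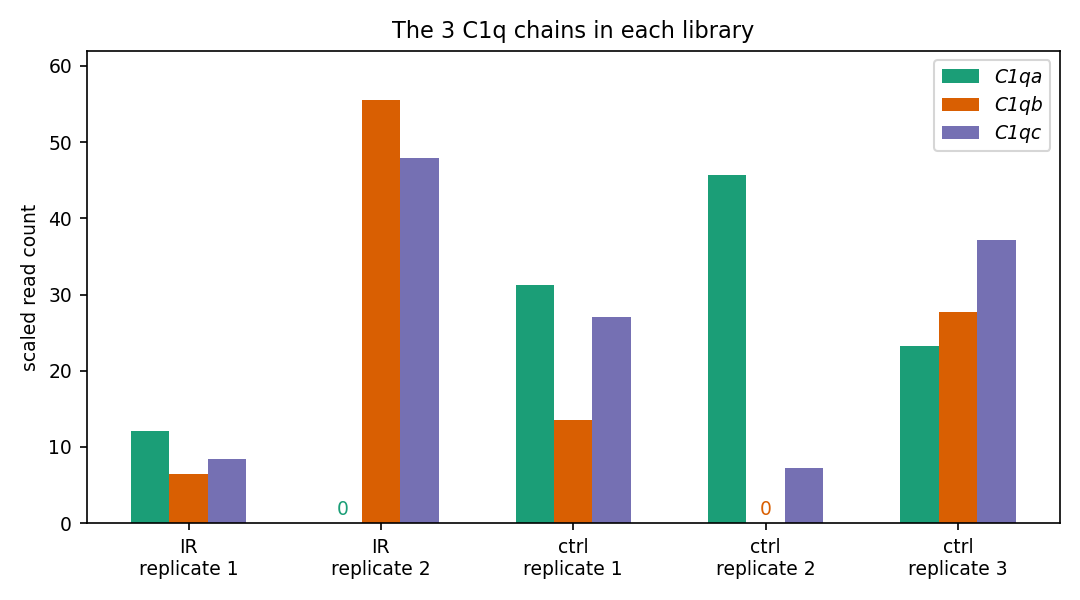
Scaled read count (y axis) of C1qa, C1qb and C1qc in each IR and ctrl library (x axis); bars are single libraries and a 0 marks a chain listed at 0. The chains did not keep 1 order: C1qb was the highest in IR replicate 2 (55.5) and C1qa in ctrl replicate 2 (45.7).

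The interstitial macrophage list, of which 16 genes were tested, had 0 higher and 0 lower at the limma threshold, 3 at an unadjusted p under 0.05 (against 1912 of all 12777 genes tested), and a median log2 fold change of -0.07. Its highest members, which are not particular to these macrophages, were Apoe, a lipid carrier, Csf1r, the receptor for the growth factor M-CSF, and Mrc1, a mannose receptor. Apoe had 3311 and 2242 in IR and 3582 to 4931 in ctrl, Csf1r had 3183 and 2967 in IR and 2565 to 3419 in ctrl, and Mrc1 had 1763 and 2259 in IR and 2540 to 2692 in ctrl. Each C1q chain was at 55.5 or less in every library. Other genes of the list were also low. Against C1qa, C1qb and C1qc, which averaged 22.5, 20.6 and 25.6 over the 5 libraries, Cd163, a haemoglobin scavenger receptor, averaged 24.9, Pf4, a chemokine, 24.8, Trem2, a lipid-sensing receptor, 33.3, and Ms4a7 7.64. Alveolar macrophage markers, with 0 of 18 passing limma (7 at an unadjusted p under 0.05), had a median of -0.54. Of the 18, 15 were negative and 3 positive, and 8 had both IR libraries below all ctrl libraries, against 16.3% of all genes tested. The 5 genes nearest to the mean C1q profile were Iglc2, Snrnp40, Zmym4, Fcmr and Gprasp1, with distances of 0.259 to 0.621; Iglc2, an immunoglobulin light chain gene, and Fcmr, an IgM receptor, are genes of B cells. None of the 5 passed the test, and the groups overlapped in all of them. The C1q chains did not move alike, so their mean is not the profile of any single chain. Nearness to it does not link these genes to C1q.

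Levels of different genes were compared per kilobase of exon. In IR, C5ar1 averaged 1163 ± 304 per kb and C3 943 ± 184 (SD, n = 2), followed by Cfp at 367 ± 10.6 and Cd55 at 188 ± 16.1. In ctrl, C3 averaged 652 ± 209 per kb and C5ar1 488 ± 97.1 (SD, n = 3), followed by Cd55 at 287 ± 40.0 and Cfp at 280 ± 103. C5ar1 and C3 overlapped between libraries in both groups, so their order is not resolved. Cfp and Cd55 were separate in IR and overlapped in ctrl. The C1q chains, Cfb and C3ar1 averaged from 0.105 to 28.5 per kb in IR and from 2.30 to 32.1 per kb in ctrl, so each of the other 4 members lay well above them.

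Beyond the 9 members, 55 other complement genes were listed by role; 29 had a row and 21 were tested. Of these 1 rose, 0 fell and 20 did not pass, with a median log2 fold change of 0.35 against -0.05 for all genes tested. The gene that rose was Itgam, the alpha chain of complement receptor 3, an integrin that binds cleaved C3 on targets and is abundant on neutrophils and monocytes. It had 5934.7 and 8696.4 in IR, against 3995.8, 4400.3 and 4069.2 in ctrl. Both IR libraries were above the ctrl libraries, which were close together. Its log2 fold change, 0.79 ± 0.19 (SE), had a limma adjusted p of 0.0391, and the call was lost without IR replicate 2 (0.331), without any one ctrl library (0.152 to 0.260), with robust estimation off (0.0650) or with no filter (0.122). Per 1000 of the neutrophil sum, Itgam was at 69.9 and 52.1 in IR and 66.2 to 115 in ctrl. Its partner Itgb2 had a log2 fold change of 0.44 (adjusted p = 0.234). Calr, which encodes calreticulin, and Lrp1, its partner in binding C1q on the phagocyte surface, had log2 fold changes of -0.09 and -0.34 (adjusted p = 0.863 and 0.401).

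Of the 5 initiation genes tested, 0 passed limma and 3 had an unadjusted p under 0.05, a level that 1912 of all 12777 genes tested reached. C1ra, a protease that C1q carries, had 55.2 and 77.4 in IR against 0, 3.6 and 6.5 in ctrl. Both IR libraries were above all ctrl libraries, as in 15.2% of all genes tested. C1ra reached the value required for testing in the IR libraries alone, so this separation was a condition of its being tested. Its separation, and its place among the 3 at an unadjusted p under 0.05, therefore add no support to a rise. C1ra was not fitted when either IR library was left out. The log2 fold change, 4.35 ± 1.55 (SE), rests on few reads and had a limma adjusted p of 0.174. C4b had 65.4 and 211.0 in IR against 27, 35.6 and 45.9 in ctrl (adjusted p = 0.251). Its log2 fold change of 1.71 was 2.54 and passed without IR replicate 1 (adjusted p = 0.0426), and was 0.87 without IR replicate 2 (0.816). The near-identical gene C4a was not analysed here, so the reads of C4b are uncertain. Colec12, a collectin on scavenger cells, had 19.6 and 9.2 in IR against 61.7, 40.2 and 69.4 in ctrl (adjusted p = 0.314). C1rl, a relative of C1ra, had a log2 fold change of 0.35 (adjusted p = 0.891). Among terminal genes 0 of 2 tested passed limma, with 0 at an unadjusted p under 0.05. Hc, the mouse gene for C5, had 184.2 and 95 in IR against 89.6, 55.7 and 86.9 in ctrl (adjusted p = 0.524), and C6 a log2 fold change of -1.02 (adjusted p = 0.821). Among regulators 0 of 5 tested passed limma, with 0 at an unadjusted p under 0.05. Cr1l, the rodent convertase inhibitor Crry, had a log2 fold change of -0.10, Pros1, protein S, of -0.71, and Clu, clusterin, of 0.80 (adjusted p = 0.914, 0.342 and 0.667). With 1 library left out, Pros1 ran from -1.04 to -0.38 and Clu from 0.35 to 1.26.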

How the data were processed

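Libraries of CD45-sorted mouse lung cells were made with a low-input stranded kit for total RNA, per the labels' protocols. HISAT2, HTSeq and mm10 are named, without version or role, per the submitters' processing notes; for annotation, strand setting and scaling the sources used here give nothing. The deposited signal values are read counts that the authors scaled; they have 1 decimal, and low values were within 0.1 of a whole multiple of 1 step in 86.1% to 100% of cases per library, so whole reads were not taken as recovered and count models were not used. Read numbers in the text are values divided by the step (8030000 to 10230000 reads per library).

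The 12777 genes that reached 10 in 2 or more libraries were fitted as log2(value + 1). The fit used limma 3.58.1 under R 4.3.3 and statmod 1.5.0, mean trend, robust estimation and no covariate; p-values were two-sided and adjusted by Benjamini-Hochberg over all genes kept, with a threshold of 0.05. Fold changes on this scale understate the change of low genes. The procedure was tested on simulated data. Exact permutation tests used all 10 assignments of 2 of the 5 libraries to IR. The members and lists were chosen with earlier results of these data known. Named genes were the members, the wider complement genes called or among the 4 highest of their list, the 3 highest of a marker list where its genes are described, and the 5 nearest profiles; Scgb3a2, Epcam, Cd14, Ptprc, Lcp1, Cd3g, Ebf1, Cd163, Pf4, Trem2, Ms4a7 and C5ar2 were named beside counts or after their values were seen. A gene that this rule names among the regulators is not reported here. Coordinates, exon lengths and overlaps came from GENCODE vM21, made on GRCm38 (mm10), where 14105 of 14457 symbols matched. Alternatives covered scaling, pseudocount, filter, variance model and leaving out each library.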

Additional observations from a re-analysis of the deposited data

How the results depend on the processing

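No paired analysis was possible because the labels give no replicate numbers shared between the groups. The count test on whole reads was not run, since whole reads were not recovered. With 2 libraries against 3, the smallest exact permutation p is 0.1, and at the depth of these libraries C1qa, C1qb, C1qc, Cfb and C3ar1 rest on at most 66 reads each per library. C5ar1 had a positive fold change under all 13 alternatives (log2 fold change 0.98 to 1.52) and passed in 10. It did not pass with no filter (1.25, limma adjusted p = 0.0659), without ctrl replicate 1 (1.08) or without ctrl replicate 2 (1.30). Why the call was lost there was not tested. With 1 library left out its log2 fold change ran from 0.98 to 1.52 and its adjusted p from 0.00131 to 0.0972. C1qa passed only without IR replicate 1, with leave-one-out values of -5.05 to -1.34. C1qc turned negative after rescaling to library totals (-0.067), with array weights (-0.34), without IR replicate 2 (-1.14) and without ctrl replicate 2 (-0.61); its leave-one-out values ran from -1.14 to 1.24. Cfb turned positive without IR replicate 2 (0.93), with leave-one-out values of -2.30 to 0.93. Neither passed under any alternative run, and the cause was not tested.

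The count of genes called, 192 in all, was 314 with a pseudocount of 10 and 18 with no filter, and ran from 19 to 1006 with 1 library left out. The count of wider complement genes called, 1 in all, was 0 with no filter and 0 with robust estimation off, and ran from 0 to 2 with 1 library left out. Among named wider genes, the sign turned for C1rl without IR replicate 1 (-0.63), C6 with a pseudocount of 10 (0.050) and without IR replicate 2 (1.83), Calr without ctrl replicate 1 (0.058) and Cr1l without IR replicate 1 (0.22); none of these 4 genes passed under any alternative run. With 1 library left out, C1rl ran from -0.63 to 1.34, C6 from -3.88 to 1.83, Calr from -0.20 to 0.06 and Cr1l from -0.43 to 0.22.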
